A study of Mus musculus with 29 samples.

Results

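MHC class II presentation was followed through 9 genes in mouse brain tissue taken 21 days post injury (dpi) after a photothrombotic stroke. The 9 genes were chosen by symbol (H2-Aa, H2-Ab1, H2-Eb1, Cd74, Ciita, H2-DMa, H2-DMb1, Cd80 and Cd86) among the 25746 Ensembl genes counted, all 9 were found, and all 9 passed the filter on low counts that left 17031 genes for testing. The photothrombotic stroke, a light-induced vessel occlusion, was placed in the right sensorimotor cortex. The 29 mice formed 8 groups. Without stroke there were 4 wildtype (WT) mice on a C57BL/6 background, 3 Rag2-/- mice and 4 NSG mice. In Rag2-/- mice T and B lymphocytes cannot mature for want of a recombinase. NSG mice lack T, B and NK cells on a NOD background. With stroke there were 4 WT, 3 Rag2-/- and 3 NSG mice, 3 WT mice that received the calcineurin inhibitor tacrolimus from the day of stroke (WT-Tacr acute) and 5 WT mice that received it from 7 dpi (WT-Tacr delayed), both by a subcutaneous osmotic pump. All mice were 3 months old, the study used both sexes, and the tissue is labelled as brain. No group received tacrolimus without stroke in the samples used here, and the WT, WT-Tacr acute and WT-Tacr delayed comparisons with non-stroked tissue share the same 4 WT controls. The study names the control tissue in more than one way, as the contralesional side in its methods and as naïve or non-stroked mice elsewhere, and it is called non-stroked here.

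MHC class II molecules are pairs of an alpha and a beta chain that carry peptides from endosomes to the cell surface, where CD4+ T cells read them. The invariant chain, encoded by Cd74, occupies the groove of new class II molecules until H2-DM exchanges its remnant for a peptide, and CD80 and CD86 give the T cell its co-stimulatory signal. Transcription of the chains, of Cd74 and of H2-DM depends on CIITA, a co-activator that binds no DNA itself and is held at the promoter by factors sitting on X and Y boxes. In the brain, microglia hold these genes low at rest and raise them after injury, while border macrophages, dendritic cells and B cells express them more constantly.

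The listed promoters show this architecture for some of the members. RefSeq windows on GRCm38.p6 were matched for 5 of the 9 members (H2-Aa, H2-Eb1, H2-DMa, H2-DMb1 and Cd80). The 250 bases before the start are printed for the 3 members that hold both boxes, 5′ to 3′ on the strand of the gene, with the X box letters (AACNNNTGA, or AACNNTGA in H2-Aa) and the Y box letters (TGATTGG) in capitals.
H2-Aa: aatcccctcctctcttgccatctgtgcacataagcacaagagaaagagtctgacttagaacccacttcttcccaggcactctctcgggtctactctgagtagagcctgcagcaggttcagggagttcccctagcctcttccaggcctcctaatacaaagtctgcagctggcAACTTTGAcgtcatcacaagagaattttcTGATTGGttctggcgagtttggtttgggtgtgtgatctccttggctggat
H2-Eb1: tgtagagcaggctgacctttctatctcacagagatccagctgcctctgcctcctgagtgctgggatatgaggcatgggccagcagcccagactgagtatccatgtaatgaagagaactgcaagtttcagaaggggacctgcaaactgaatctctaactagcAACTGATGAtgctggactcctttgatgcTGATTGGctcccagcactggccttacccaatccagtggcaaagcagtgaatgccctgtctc
H2-DMb1: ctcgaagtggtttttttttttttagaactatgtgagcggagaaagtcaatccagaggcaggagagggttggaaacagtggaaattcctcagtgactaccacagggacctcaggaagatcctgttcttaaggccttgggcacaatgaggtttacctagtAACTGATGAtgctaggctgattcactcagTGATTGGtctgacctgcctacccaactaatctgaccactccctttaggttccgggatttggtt
The windows lie at chr17:34287824-34288073 on the minus strand (H2-Aa), chr17:34305617-34305866 on the plus strand (H2-Eb1) and chr17:34152941-34153190 on the plus strand (H2-DMb1). The Y box began 50, 61 and 63 bases before the RefSeq start, and 21, 19 and 20 bases separated it from the X box. For H2-DMb1 the window runs into the annotated span of the gene (chr17:34153072-34160230), and its Y box lies inside that span. H2-DMb2, the neighbouring gene of another H2-DM beta chain, held the same pair with 20 bases between. Neither motif was found in the window of Cd80 or in those of the 2 starts listed for H2-DMa. The latter windows lie at chr17:34122582-34122831 and chr17:34125268-34125517, inside the annotated span of H2-DMa (chr17:34119541-34139101). Other stretches of that span were not searched, so H2-DMa is not shown to lack the boxes. Both strands were searched, and of 32851 windows of this length 7.23% held the Y box letters, 18.9% the X box letters and 0.262% an X box that began within 40 bases before a Y box. The letters were chosen after these promoters had been read, and a match is a description of the sequence.

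H2-Aa, H2-Ab1, H2-Eb1, H2-DMa and H2-DMb1 lie within the MHC on chromosome 17 (GRCm38), H2-Aa for example at chr17:34282744-34287823 on the minus strand, H2-Ab1 at chr17:34257689-34269419 on the plus strand, H2-Eb1 at chr17:34305867-34316674 on the plus strand and H2-DMb1 at chr17:34153072-34160230 on the plus strand. Cd80 (chr16:38455561-38496335, plus strand), Cd86 (chr16:36603869-36666081, minus strand) and Ciita (chr16:10480059-10528418, plus strand) are on chromosome 16 and Cd74 is on chromosome 18. NSG mice carry another MHC haplotype than WT mice, and for the genes on chromosome 17 a difference in transcript level and a difference in how well reads match the reference cannot be told apart between strains. H2-DMa (chr17:34119541-34139101, plus strand) shares 360 of its 3448 exon bases (10.4%) with Brd2 on the opposite strand, which had 3465 to 10430 counts per mouse, and Ciita shares 329 of 9535 (3.45%) with Dexi. Whether strand was used in counting is not given in the sources used here.

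Total counts ran from 17789044 to 43403413 per mouse. By the first part of their titles the mice form 2 cohorts, Imm2 with 20 and TF with 9 mice. All non-stroked, Rag2-/- and NSG mice are in Imm2, all WT-Tacr delayed mice are in TF, and stroked WT (2 and 2) and WT-Tacr acute mice (1 and 2) are in both. Names of stroked Imm2 mice hold f or m, only m in WT and WT-Tacr acute mice and both letters in Rag2-/- and NSG mice. Whether these letters give the sex is not stated in the labels used here, and sex was not tested. Rag2-/- mice had 0 to 4 counts of B230118H07Rik, a gene beside Rag2, against 274 to 1241 elsewhere, and Il2rg, altered in NSG mice, was at 0.784 to 0.979 CPM in stroked NSG mice against 2.11 to 3.46 CPM in stroked WT mice, while without stroke NSG (0.681 to 1.05 CPM) and WT mice (0.716 to 0.871 CPM) overlapped. CPM is the depth-scaled count, on library sizes adjusted by TMM (trimmed mean of M values). In 2 of the 3 WT-Tacr acute mice the signs of a lesion were weak. Gfap, which reactive astrocytes raise, was at 267 CPM in mouse 5m_1 and 189 CPM in mouse 1_5, against 102 to 172 CPM in non-stroked WT and 765 to 1144 CPM in stroked WT mice, whereas the third mouse, 2_1, had 928 CPM. Lcn2, an acute-phase gene, was at 8.47, 0.166 and 67.2 CPM in the same order, against 0.0272 to 0.292 CPM in non-stroked and 21.1 to 106 CPM in stroked WT mice. For these 2 low mice, 5m_1 and 1_5, the mouse number in the title differs from the one under which the counts were deposited, and the title of 5m_1 does not give the start of treatment, its group coming from the genotype label that it shares with the other acute mice. Results for the WT-Tacr acute group are given per mouse and with and without mouse 2_1. Each sample has a title of its own and is taken here as 1 mouse, which the titles do not state in words, and p-values measure the spread between these samples.

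Stroke raised most of the 9 genes in every strain. A gene was called where edgeR's quasi-likelihood test gave an adjusted p below 0.05 (Benjamini-Hochberg over all 17031 genes) and the log2 fold change was above 1 in size. In WT mice 8 of the 9 were higher after stroke, where 6.76% of all genes tested were called higher. In Rag2-/- mice 7 of 9 were higher (4.22% of all genes) and in NSG mice 8 of 9 (5.01%). In WT-Tacr delayed mice 8 of 9 were higher (11.5%) and in WT-Tacr acute mice 7 of 9 (2.28%). The latter rested on mouse 2_1, without which 0 of the 9 were called (0.133% of all genes in either direction). Without non-stroked mouse 1Wt 4 were called (1.24%). None fell. The median log2 fold change of the 9 was 2.83 in WT, 1.86 in WT-Tacr acute, 3.58 in WT-Tacr delayed, 2.32 in Rag2-/- and 2.50 in the NSG strain, against medians between -0.0033 and 0.0299 over all genes tested. H2-DMa was the member not called in any of these 5 comparisons, and Ciita was not called in Rag2-/- and WT-Tacr acute mice. Since each sample is bulk tissue, more cells that express a gene and more RNA per cell cannot be told apart. Statements that groups do not overlap, or that a mouse lies beyond a whole group, are descriptions. The share of all genes that separate in the same way was not counted.

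**Figure D1:**
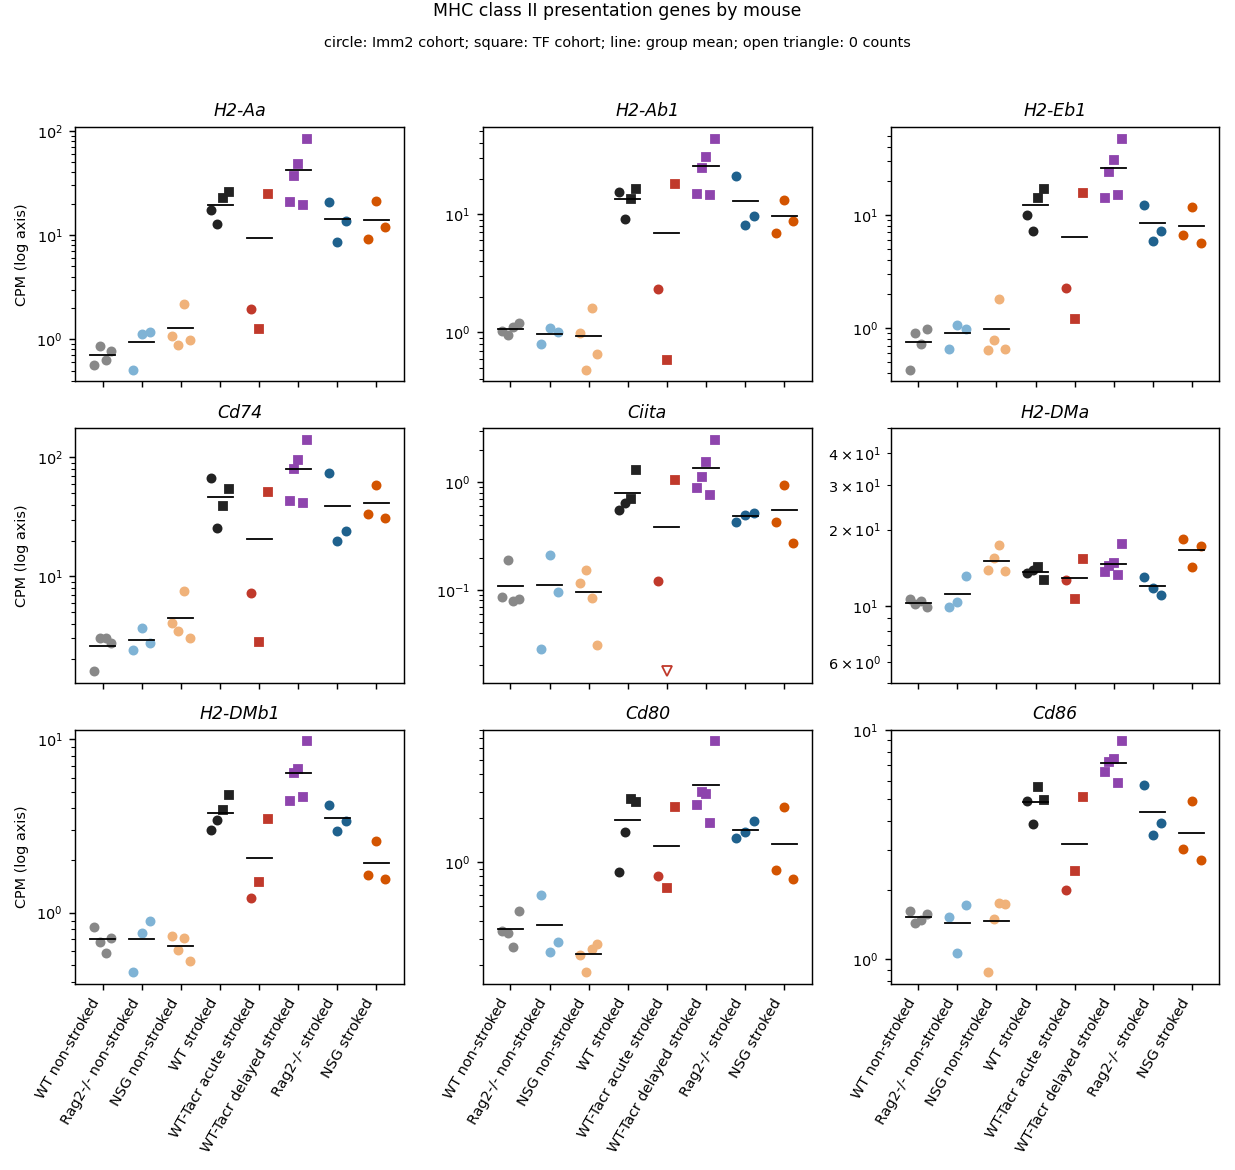
Level of each of the 9 genes in every mouse, in CPM on a log axis, by group, with circles for the Imm2 and squares for the TF cohort and a line at the group mean. Stroked WT, WT-Tacr delayed, Rag2-/- and NSG mice lie above the non-stroked mice of their strain for every gene but H2-DMa, and 2 of the 3 WT-Tacr acute mice lie near the non-stroked mice. The open triangle marks Ciita at 0 counts in mouse 1_5.

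Cd74, the invariant chain, was the most abundant member per exon length in stroked WT tissue, at a mean of 27.7 CPM per kb against 6.24 CPM per kb for H2-Eb1, the next. Without stroke it was at 1.595, 2.992, 2.996 and 2.721 CPM in WT mice, and after stroke at 66.5, 25.6, 39.4 and 54.4 CPM. In Rag2-/- mice it was at 2.41, 3.65 and 2.73 CPM without and at 73.7, 19.9 and 24.0 CPM with stroke. In NSG mice it was at 4.007, 3.453, 7.455 and 3.001 CPM without and at 33.2, 58.8 and 31.1 CPM with stroke. Stroked and non-stroked mice did not overlap in any of the 3 strains. The log2 fold change was 4.17 ± 0.65 (SE) in WT (an 18.0-fold rise, adjusted p = 8.69e-05), 3.74 ± 0.74 in Rag2-/- (13.4-fold, adjusted p = 0.00256) and 3.19 ± 0.64 in the NSG strain (9.15-fold, adjusted p = 0.00123). In both genetically immunodeficient strains 1 mouse stood above the others, 4f_1 at 73.7 CPM and 1f_2 at 58.8 CPM. Mouse 4f_1 was the highest Rag2-/- mouse for 7 of the 9 genes and 1f_2 the highest NSG mouse for 8 of 9.

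H2-Aa, the alpha chain of the I-A molecule, rose the most of the 9 in WT mice. It was at 0.569, 0.871, 0.636 and 0.770 CPM in non-stroked WT mice and at 17.2, 12.9, 22.5 and 25.8 CPM in stroked WT mice. In Rag2-/- mice it went from 0.510, 1.13 and 1.18 CPM to 20.8, 8.67 and 13.6 CPM. NSG mice had 1.08, 0.889, 2.18 and 0.990 CPM without and 9.13, 21.1 and 11.9 CPM with stroke. No stroked mouse of these strains was as low as any non-stroked mouse. The log2 fold change was 4.77 ± 0.72 in WT (27.4-fold, adjusted p = 6.19e-05), 3.94 ± 0.81 in Rag2-/- (15.4-fold, adjusted p = 0.00300) and 3.45 ± 0.69 in the NSG strain (10.9-fold, adjusted p = 0.00123).

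Transcripts of H2-Ab1, the beta chain that pairs with H2-Aa, and of H2-Eb1, the beta chain of the I-E molecule, rose alongside. H2-Ea-ps, the pseudogene of the I-E alpha chain, had 1 count in all mice together. The H2-Eb1 values thus describe a transcript and do not show that I-E molecules were present. H2-Ab1 went from 0.952 to 1.21 CPM in non-stroked to 9.14 to 16.4 CPM in stroked WT mice, a log2 fold change of 3.65 ± 0.62 (adjusted p = 0.000170). Its log2 fold change was 3.73 ± 0.73 in Rag2-/- (adjusted p = 0.00227) and 3.36 ± 0.65 in NSG mice (adjusted p = 0.000917). For H2-Eb1, WT mice spanned 0.427 to 0.989 CPM without and 7.28 to 17.0 CPM with stroke (3.99 ± 0.61, adjusted p = 6.59e-05). The rise of H2-Eb1 was 3.23 ± 0.69 in Rag2-/- and 3.03 ± 0.61 in NSG mice on the log2 scale (adjusted p = 0.00387 and 0.00123). Again the groups did not overlap within any strain.

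The balance of the I-A chains differed between non-stroked strains as a description. Per exon length, H2-Ab1 stood at 1.62 to 2.66 times the level of H2-Aa in non-stroked WT mice, at 1.28 to 2.30 times in Rag2-/- mice and at 0.803 to 1.36 times in NSG mice. After stroke the ratio was 0.874 to 1.31 in WT, 1.037 to 1.497 in Rag2-/- and 0.928 to 1.11 in the NSG strain. The non-stroked values rest on 18 to 77 counts of H2-Aa, and in NSG mice transcript levels and the matching of reads to the reference cannot be told apart.

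Ciita, the co-activator, was the least abundant member. Non-stroked mice of all strains had 1 to 7 counts, that is 0.0795 to 0.190 CPM in WT, 0.0283 to 0.213 CPM in Rag2-/- and 0.0309 to 0.152 CPM in the NSG strain. After stroke it was at 0.555, 0.639, 0.695 and 1.31 CPM in WT mice, at 0.430, 0.499 and 0.521 CPM in Rag2-/- mice and at 0.430, 0.939 and 0.275 CPM in NSG mice. Stroked mice were above all non-stroked mice of their strain in each case. The log2 fold change was 2.83 ± 0.69 in WT (7.09-fold, adjusted p = 0.00419) and 2.45 ± 0.75 in NSG mice (5.46-fold, adjusted p = 0.0209), and in Rag2-/- mice it was 2.09 ± 0.83 and was not called (adjusted p = 0.130), although it was called when only Imm2 mice (adjusted p = 0.0284) or only Rag2-/- mice (adjusted p = 0.0276) were fitted. The difference between the Rag2-/- and WT responses was -0.74 ± 1.14 (95% interval -2.976 to 1.497, adjusted p = 0.958), so the miss in Rag2-/- mice does not show a smaller response. In NSG mice the call was lost when stroked mouse 1f_2 (log2 fold change 1.81, adjusted p = 0.116) or non-stroked mouse 4NSG (2.18, adjusted p = 0.0569) was left out.

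**Figure D2:**
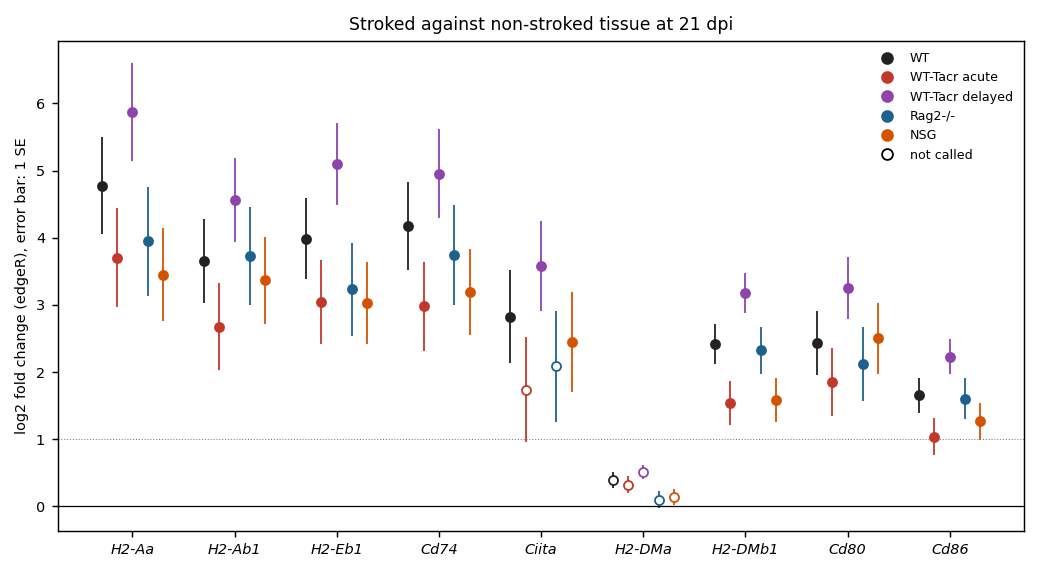
Log2 fold change of stroked against non-stroked mice for each gene (edgeR), in WT, WT-Tacr acute, WT-Tacr delayed, Rag2-/- and NSG mice, with an error bar of 1 SE and open symbols for genes not called. The dotted line is the minimum log2 fold change of 1. The H2 chains and Cd74 lie highest, between 2.68 and 5.87, and H2-DMa stays between 0.10 and 0.51.

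H2-DMa and H2-DMb1 encode the chains of H2-DM, the peptide exchange factor, and their transcripts moved unequally. H2-DMb1 was at 0.826, 0.680, 0.583 and 0.715 CPM in non-stroked and at 2.98, 3.45, 3.91 and 4.77 CPM in stroked WT mice. Its log2 fold change was 2.42 ± 0.30 in WT (5.36-fold, adjusted p = 1.50e-05), 2.32 ± 0.35 in Rag2-/- (5.01-fold, adjusted p = 0.000283) and 1.58 ± 0.32 in the NSG strain (2.997-fold, adjusted p = 0.00137). H2-DMa was at 10.6, 10.2, 10.4 and 9.89 CPM in non-stroked and at 13.5, 13.8, 14.3 and 12.6 CPM in stroked WT mice. These groups did not overlap, but the difference of 0.40 ± 0.12 on the log2 scale (adjusted p = 0.0138) was under the minimum of 1. In Rag2-/- mice H2-DMa differed by 0.10 ± 0.13 (95% interval -0.16 to 0.36, adjusted p = 0.723) and in NSG mice by 0.14 ± 0.12 (-0.10 to 0.38, adjusted p = 0.432), and in both strains stroked and non-stroked mice overlapped.

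The ratio of the DM chains shows the same contrast mouse by mouse. Per exon length, H2-DMa stood at 6.27, 7.33, 8.71 and 6.75 times the level of H2-DMb1 in non-stroked WT mice and at 2.20, 1.95, 1.78 and 1.29 times in stroked WT mice. In Rag2-/- mice the ratio was 10.6, 6.67 and 7.21 without and 1.53, 1.94 and 1.58 with stroke. In NSG mice it was 9.22, 12.37, 11.95 and 12.70 without and 5.45, 2.68 and 5.40 with stroke. The ratio was lower in every stroked mouse than in every non-stroked mouse of its strain, and stroked NSG mice lay above all stroked WT mice. How far reads from the bases shared with Brd2 add to the H2-DMa counts was not tested.

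**Figure D3:**
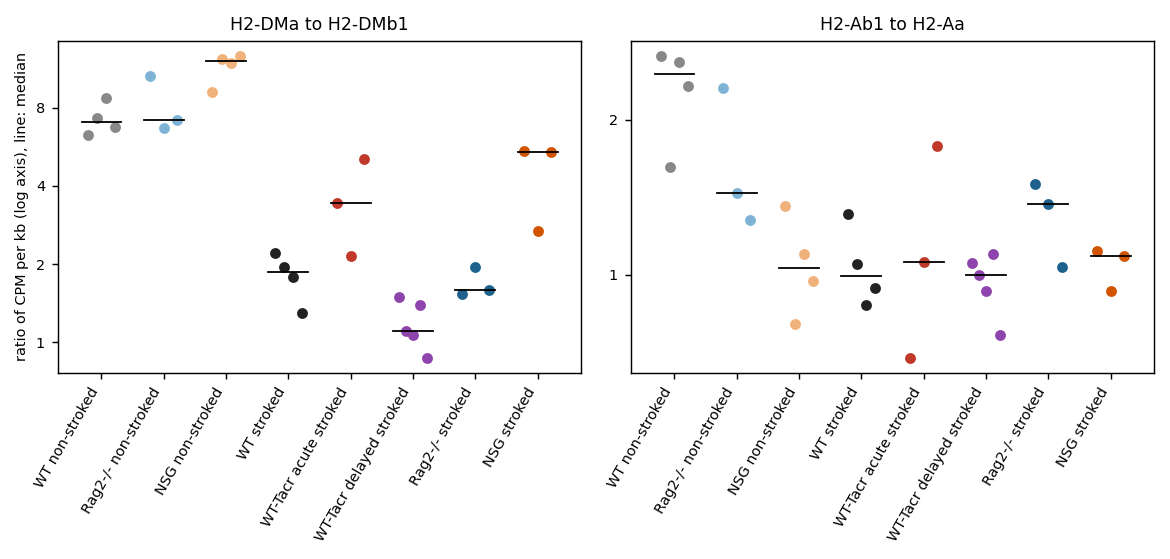
Ratio of CPM per kb of exon between H2-DMa and H2-DMb1 (left) and between H2-Ab1 and H2-Aa (right) in every mouse, on log axes, with a line at the group median. The DM ratio falls from a median of 7.04 to 1.87 with stroke in WT mice and from 12.2 to 5.40 in NSG mice, and the H2-Ab1 to H2-Aa ratio is highest in non-stroked WT mice.

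Cd80 and Cd86, the ligands of CD28 and CTLA-4, both rose. Cd86 was at 1.62, 1.44, 1.49 and 1.57 CPM in non-stroked WT mice and at 4.90, 3.89, 5.65 and 4.92 CPM in stroked WT mice. Its log2 fold change was 1.66 ± 0.26 in WT (3.15-fold, adjusted p = 9.18e-05), 1.605 ± 0.30 in Rag2-/- (adjusted p = 0.00186) and 1.27 ± 0.28 in the NSG strain (adjusted p = 0.00243). Cd80 was lower at rest, at 0.342, 0.327, 0.265 and 0.467 CPM in WT mice, and reached 0.858, 1.61, 2.69 and 2.57 CPM after stroke. Its log2 fold change was 2.44 ± 0.48 in WT (5.42-fold, adjusted p = 0.000642), 2.12 ± 0.55 in Rag2-/- (adjusted p = 0.0160) and 2.50 ± 0.53 in the NSG strain (adjusted p = 0.00175). Stroked and non-stroked mice did not overlap for either ligand in the 3 strains. In Rag2-/- mice the call on Cd80 was lost without non-stroked mouse 2Rag (adjusted p = 0.0890) or 4Rag (adjusted p = 0.0770), and in NSG mice Cd86 fell to a log2 fold change of 0.95, under the minimum, without mouse 1f_2. A fit of the NSG mice alone, where Ciita did not pass the filter, gave 6 called members. In that fit Cd86 was not called, at a log2 fold change of 1.27 and an adjusted p of 0.0573.

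The size of the stroke response was compared between strains as a difference of log2 fold changes. Between Rag2-/- and WT mice 0 of the 9 members were called (0% of all genes tested), with 0 members at an unadjusted p under 0.05. Between NSG and WT mice 0 were called (0.0117% of all genes) and between NSG and Rag2-/- mice 0 (0% of all genes), again with 0 members at an unadjusted p under 0.05, and DESeq2 likewise called 0 in each. The intervals were wide. For H2-Aa the NSG response differed from that of WT mice by -1.33 ± 0.99 (95% interval -3.27 to 0.62), for Cd74 by -0.98 ± 0.88 (-2.70 to 0.75) and for H2-DMb1 by -0.84 ± 0.44 (-1.70 to 0.03, adjusted p = 0.421). For Rag2-/- against WT mice the difference for Cd74 was -0.43 ± 0.94 (-2.26 to 1.41) and for H2-DMb1 -0.10 ± 0.46 (-0.99 to 0.80). At this number of mice the intervals for H2-Aa and Cd74 include an NSG response several times smaller than that of WT mice. They do not include one several times larger. For Cd74 in Rag2-/- mice the interval is wide in both directions.

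Without stroke, no member was called between any pair of strains, at wide intervals for the H2 chains and Cd74. Between Rag2-/- and WT mice 0 of 9 members were called (0.00587% of all genes), and none had an unadjusted p under 0.05 with edgeR. Between NSG and WT mice 0 of 9 were called (3.36% of all genes) and between NSG and Rag2-/- mice 0 of 9 (2.80%), with 1 member each, H2-DMa, at an unadjusted p under 0.05, and DESeq2 called 0 in all 3. H2-DMa was at 13.8, 15.5, 17.4 and 13.7 CPM in NSG mice, above all 4 WT mice (9.89 to 10.6 CPM) and all 3 Rag2-/- mice (9.88, 10.4 and 13.2 CPM). The difference was 0.55 ± 0.12 on the log2 scale against WT (adjusted p = 0.00190) and 0.44 ± 0.13 against Rag2-/- mice (adjusted p = 0.0329), both under the minimum of 1. Every NSG mouse was also above every WT mouse for H2-Aa, at 0.889 to 2.18 CPM against 0.569 to 0.871 CPM (0.85 ± 0.78, 95% interval -0.68 to 2.38, adjusted p = 0.582), and for Cd74, at 3.001 to 7.455 CPM against 1.595 to 2.996 CPM (0.80 ± 0.65, -0.47 to 2.06, adjusted p = 0.519). Mouse 3NSG carried the highest H2-Aa, H2-Ab1, H2-Eb1 and Cd74 levels of the 11 non-stroked mice.

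Ordered by mean level, 8 of the 9 genes had the WT-Tacr delayed group first and stroked WT mice second. For Cd74 the means were 80.0, 46.5, 41.0 (NSG), 39.2 (Rag2-/-) and 20.5 CPM (WT-Tacr acute), followed by the non-stroked groups at 4.48 (NSG), 2.93 (Rag2-/-) and 2.58 CPM (WT). Each stroked group overlapped its neighbour in this order, as did each non-stroked group. H2-DMa alone had the 2 NSG groups first, at 16.6 and 15.1 CPM. H2-DMb1 had stroked NSG mice last among the stroked groups, at 1.56 to 2.59 CPM, below all stroked WT (2.98 to 4.77 CPM) and Rag2-/- mice (2.97 to 4.16 CPM).

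Of the 3 mice given tacrolimus from the day of stroke, 2 were near the non-stroked range, the same 2 whose lesion genes were weak and whose numbers differ between title and deposited counts. Cd74 was at 7.25 CPM in mouse 5m_1, 2.79 CPM in 1_5 and 51.3 CPM in 2_1. H2-Aa was at 1.95, 1.25 and 25.1 CPM and H2-DMb1 at 1.217, 1.498 and 3.477 CPM in the same order. Ciita had 5 counts in 5m_1 (0.122 CPM), 0 counts in 1_5, which allows up to 0.125 CPM at 3 counts for counting error alone, and 1.04 CPM in 2_1. Mouse 1_5 was below all stroked WT mice for 9 of the 9 genes and 5m_1 for 8, whereas 2_1 was below them for 0. Mouse 5m_1 was above all non-stroked WT mice for 8 of 9 genes, 1_5 for 5 and 2_1 for 9. Against non-stroked WT mice the log2 fold change of the group was 2.98 ± 0.66 for Cd74 (adjusted p = 0.0108), 3.70 ± 0.74 for H2-Aa (adjusted p = 0.00577) and 1.04 ± 0.28 for Cd86 (adjusted p = 0.0263), with the groups overlapping for Cd74, H2-Ab1, Ciita and H2-DMa. Ciita itself was not called (1.74 ± 0.78, adjusted p = 0.150). Without 2_1 the log2 fold changes were 0.99 for Cd74 (adjusted p = 0.447) and 1.19 for H2-Aa (adjusted p = 0.394), and 0.133% of all genes were called. With the cohort as a covariate 0 of the 9 were called (0.182% of all genes), with Cd74 at 2.41 (adjusted p = 0.263). With only these 2 groups fitted, where Ciita did not pass the filter, 0 of 8 were called (0.132% of all genes) at nearly the same log2 fold changes, 2.99 for Cd74 (adjusted p = 0.106) and 3.72 for H2-Aa (adjusted p = 0.104). Among the Imm2 mice the acute group is the low mouse 5m_1 alone, so that a fit of that cohort says nothing of the group.

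Against stroked WT mice, 0 of the 9 members were called in WT-Tacr acute mice (0% of all genes tested). In this comparison 2 members, H2-DMb1 (-0.88 ± 0.31, adjusted p = 0.311) and Cd86 (-0.62 ± 0.28, adjusted p = 0.354), had an unadjusted p under 0.05, and DESeq2 likewise called 0, with 2 at an unadjusted p under 0.05. All 9 log2 fold changes were below 0, from -1.19 for Cd74 (95% interval -2.40 to 0.02) to -0.07 for H2-DMa. Leaving out mouse 2_1 gave 7 called members, all lower, where 3.99% of all genes were called, for example H2-DMb1 at -1.47 (adjusted p = 0.00416) and Cd86 at -1.13 (adjusted p = 0.0124). One mouse thus decides between 0 and 7 calls, and the same 2 mice that were low in class II genes were low in Gfap and Lcn2. The part of lesion size in these values was not tested.

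Tacrolimus from 7 dpi went with the highest class II levels. Cd74 was at 43.2, 80.1, 95.1, 41.2 and 141 CPM in the 5 WT-Tacr delayed mice, H2-Aa at 20.8, 36.7, 48.6, 19.5 and 84.2 CPM and Ciita at 0.885, 1.13, 1.53, 0.770 and 2.48 CPM. Mouse 5_5, the last of these, was the highest of the group for 9 of the 9 genes. Every delayed mouse was above every non-stroked WT mouse for all 9 genes, in a comparison where 11.5% of all genes tested were called higher. Against non-stroked WT mice the log2 fold change was 5.87 ± 0.73 for H2-Aa (58.5-fold, adjusted p = 1.18e-06), 5.10 ± 0.61 for H2-Eb1 (34.2-fold, adjusted p = 8.81e-07), 4.95 ± 0.66 for Cd74 (31.0-fold, adjusted p = 2.59e-06) and 3.18 ± 0.30 for H2-DMb1 (9.08-fold, adjusted p = 1.38e-07). With the cohort as a covariate 7 of the 9 were called, Ciita being lost (adjusted p = 0.0916). The share of all genes called in either direction was 4.24% with this covariate and 15.5% without it.

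Against stroked WT mice, 0 of the 9 members were called in WT-Tacr delayed mice (0% of all genes tested), although all 9 log2 fold changes were above 0. The largest was 1.11 ± 0.48 for H2-Eb1 (95% interval 0.17 to 2.05, adjusted p = 0.211) and H2-DMb1 was at 0.76 ± 0.26 (0.25 to 1.27, adjusted p = 0.154). These and Cd86 (0.57 ± 0.24, adjusted p = 0.196) were the 3 members with an unadjusted p under 0.05, and DESeq2 gave no adjusted p for the 9 members here. Cd86 was the only member for which every delayed mouse (5.84 to 8.93 CPM) was above every stroked WT mouse (3.89 to 5.65 CPM). Within the TF cohort the 2 stroked WT mice had 39.4 CPM of Cd74, below all 5 delayed mice (41.2 to 141 CPM), and 54.4 CPM, inside their range, and with the cohort as a covariate the difference for Cd86 was 0.32 (adjusted p = 1).

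Between WT-Tacr delayed and WT-Tacr acute mice 8 of the 9 members were called higher with delayed treatment (5.75% of all genes tested were called in either direction). The log2 fold change was 2.17 ± 0.64 for H2-Aa (4.49-fold, adjusted p = 0.0213), 1.97 ± 0.62 for Cd74 (3.93-fold, adjusted p = 0.0276), 1.84 ± 0.65 for Ciita (3.58-fold, adjusted p = 0.0452), 1.64 ± 0.30 for H2-DMb1 (3.12-fold, adjusted p = 0.0102) and 1.19 ± 0.27 for Cd86 (2.28-fold, adjusted p = 0.0103). H2-DMb1 and Cd86 were higher in every delayed than in every acute mouse. For the other called members, mouse 2_1 lay inside the delayed range. Without mouse 5m_1 or without mouse 1_5 the call was lost for all 8, in fits that called 0% of all genes. Without 2_1 all 8 were called (11.2% of all genes), and without delayed mouse 5_5 only H2-DMb1 and Cd86 remained called (2.54%). A fit of the 2 groups alone called 0 members and 0 genes at nearly the same log2 fold changes, for example 2.19 for H2-Aa (adjusted p = 0.133), 1.99 for Cd74 (adjusted p = 0.127) and 1.66 for H2-DMb1 (adjusted p = 0.0741). With the cohort as a covariate 4 members were called, H2-Aa, H2-Eb1, H2-DMb1 and Cd86 (2.48% of all genes).

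**Figure D4:**
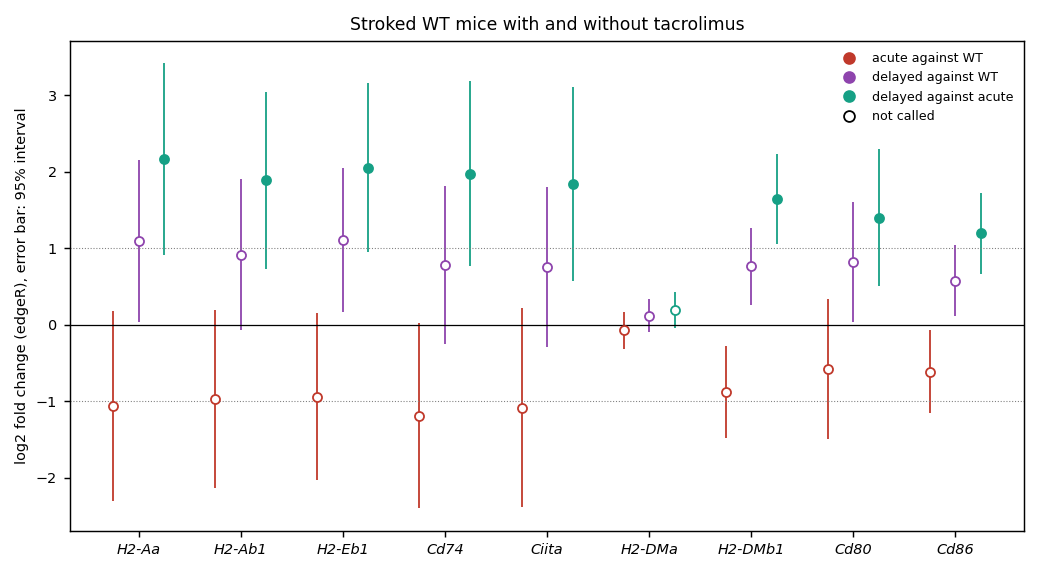
Log2 fold change between stroked WT mice without tacrolimus, with acute and with delayed tacrolimus for each gene (edgeR), with 95% intervals and open symbols for genes not called. Acute minus WT values lie below 0 and delayed minus WT values above 0 without a call, and delayed minus acute values are called for every gene but H2-DMa.

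The other genes of the pathway were followed in 6 lists. Counts of called genes in these and in the cell type lists below stand beside the share of all genes tested that were called higher after stroke. That share was 6.76% in WT, 2.28% in WT-Tacr acute, 11.5% in WT-Tacr delayed, 4.22% in Rag2-/- and 5.01% in NSG mice. More calls in one group than in another are thus no result about a list by themselves. Among other class II chains and peptide editors, 3 of 5 genes passed the filter. H2-Ob, the beta chain of H2-O, which restrains H2-DM, rose in WT (1.88 ± 0.37 on the log2 scale, adjusted p = 0.000621), WT-Tacr acute and WT-Tacr delayed mice. H2-Oa, its alpha chain, rose in WT (1.25 ± 0.30), WT-Tacr delayed, Rag2-/- (1.53 ± 0.34) and NSG mice (1.24 ± 0.40). H2-DMb2 rose in WT (1.20 ± 0.34), both WT-Tacr groups and NSG mice (1.33 ± 0.30). Without stroke H2-Oa was lower (-1.54 ± 0.37, adjusted p = 0.00734) and H2-DMb2 higher (1.62 ± 0.33, adjusted p = 0.00143) in NSG than in WT mice, both being genes of the MHC region. H2-Ea-ps, the I-E alpha pseudogene of the C57BL/6 haplotype, was at 0 CPM in 7 of the 8 groups. With 1 count in all mice together, an alpha partner for H2-Eb1 was not seen at an appreciable level in any strain, NSG included.

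The endosomal proteases rose in all strains. Of 6 genes, 4 were called higher in WT, WT-Tacr delayed and Rag2-/- mice, 5 in NSG and 2 in WT-Tacr acute mice, and none fell. Ctss, cathepsin S, which trims the invariant chain, rose by 2.09 ± 0.30 in WT, 2.13 ± 0.35 in Rag2-/- and 2.12 ± 0.32 in the NSG strain on the log2 scale (adjusted p = 4.54e-05, 0.000596 and 9.78e-05). Ctsh rose by 1.85 ± 0.29 in WT and 2.09 ± 0.30 in NSG mice, Ctsd by 1.67 ± 0.27 and 1.85 ± 0.28, and Ctsl by 1.29 ± 0.25 and 1.04 ± 0.26. Ctsb was called in NSG mice (1.01 ± 0.15) and stood at 0.65 ± 0.14 in WT mice. Lgmn, an asparaginyl endopeptidase, stayed under the minimum at 0.56 ± 0.12 in WT and 0.77 ± 0.13 in NSG mice.

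None of the RFX, NF-Y and CREB factors that bind the X and Y boxes was called in a stroke comparison. Of 16 promoter factors and interferon-gamma signalling genes, 15 were tested, and 2 were called higher in WT, 0 in WT-Tacr acute, 4 in WT-Tacr delayed, 1 in Rag2-/- and 1 in NSG mice. Rfx5 differed by 0.10 ± 0.09, Rfxap by -0.16 ± 0.11 and Nfya by 0.06 ± 0.12 between stroked and non-stroked WT mice on the log2 scale. Irf8, a transcription factor of myeloid cells, rose in WT (1.64 ± 0.27, adjusted p = 0.000116), Rag2-/- (1.56 ± 0.31) and NSG mice (1.64 ± 0.28). Ifngr1 rose in WT (1.19 ± 0.16) and WT-Tacr delayed mice (1.55 ± 0.16). Irf1 (1.28 ± 0.22), a mediator of interferon signalling, was called in WT-Tacr delayed mice, and Ifng itself was nearly absent, at a mean of 0 to 0.0277 CPM per group.

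March1 and March8, ubiquitin ligases that turn over class II and CD86, were not called in any stroke comparison (-0.14 ± 0.13 and 0.26 ± 0.08 in WT mice). Of 6 other ligands 4 were tested. Icosl rose in WT (1.31 ± 0.20), WT-Tacr delayed and Rag2-/- mice (1.35 ± 0.23), and Cd274, which encodes PD-L1, and Cd40 in WT-Tacr delayed mice (1.49 ± 0.25 and 1.23 ± 0.41). Of 4 T cell partner genes 3 were tested. Lag3, a class II receptor, rose in all 5 comparisons, by 2.07 ± 0.26 in WT and, in mice without mature T cells, by 1.87 ± 0.30 in Rag2-/- and 1.58 ± 0.27 in NSG mice. Cd28 rose in WT (2.04 ± 0.64, adjusted p = 0.0202) and WT-Tacr delayed mice (2.98 ± 0.61), and Cd4 in WT-Tacr delayed mice (1.76 ± 0.69).

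Class II genes rose in mice with and without T cells. Of 7 T cell genes 6 were tested, and 4 were called higher in WT, 5 in WT-Tacr delayed and 0 in WT-Tacr acute, Rag2-/- and NSG mice. A smaller set, Cd3d, Cd3e, Cd3g and Cd8a, was chosen after Cd4 and Trac had been seen to carry counts in Rag2-/- and NSG mice. Cd2 was left out as well. The summed counts of this set were 2 to 6 in non-stroked and 17 to 82 in stroked WT mice. They were 20 to 38 in WT-Tacr delayed and 3 to 24 in WT-Tacr acute mice. Rag2-/- mice had 0 to 3 counts without and 1 to 5 with stroke, and NSG mice 0 without and 0 to 1 with stroke. For this set alone, stroked Rag2-/- and NSG mice thus had counts within or under the range of non-stroked WT mice while Cd74 stood at 19.9 to 73.7 CPM. Cd4 was at 1.28 to 35.5 CPM in NSG mice and is no guide to T cells here. Of 6 B cell genes 4 were tested, with 0 called higher in WT, WT-Tacr acute, Rag2-/- and NSG mice and Cd79b called higher in WT-Tacr delayed mice, and Pax5 lower in WT and WT-Tacr delayed mice. The B cell gene Ms4a1 was at 0 to 0.124 CPM over all mice.

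**Figure D5:**
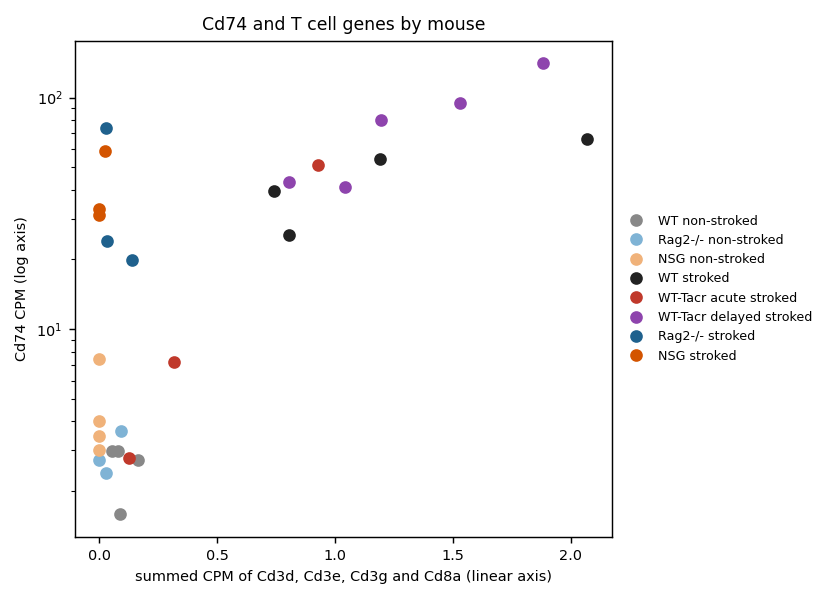
Cd74 level (CPM, log axis) against the summed level of Cd3d, Cd3e, Cd3g and Cd8a (CPM, linear axis) in each of the 29 mice, coloured by group. Stroked Rag2-/- and NSG mice lie at 0 to 0.139 CPM of the T cell genes with Cd74 between 19.9 and 73.7 CPM, and stroked WT mice at 0.739 to 2.07 CPM with Cd74 between 25.6 and 66.5 CPM.

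Some markers of myeloid cells rose in the same comparisons, in which 6.76% (WT), 2.28% (WT-Tacr acute), 11.5% (WT-Tacr delayed), 4.22% (Rag2-/-) and 5.01% (NSG) of all genes were called higher. Of 6 homeostatic microglia genes 3 were called higher in WT, 4 in WT-Tacr delayed, 1 in Rag2-/-, 1 in NSG and 0 in WT-Tacr acute mice, with summed levels of 240 to 279 CPM in non-stroked and 422 to 567 CPM in stroked WT mice. Of 7 border macrophage and monocyte genes 6 were called higher in WT, 7 in WT-Tacr delayed, 3 in WT-Tacr acute, 3 in Rag2-/- and 1 in NSG mice, with sums of 4.07 to 6.96 CPM and 11.5 to 27.3 CPM in non-stroked and stroked WT mice. Of 8 dendritic cell genes 6 were tested, and 3 were called higher in WT and WT-Tacr delayed, 2 in NSG and 1 in WT-Tacr acute and Rag2-/- mice. The lowest log2 fold change of this list in WT mice was -0.59. Its summed level was 21.3 to 27.6 CPM in non-stroked and 29.8 to 41.4 CPM in stroked WT mice. Itgax, which activated microglia also express, rose in all 5 comparisons (6.21 ± 0.81 in WT, 5.30 ± 0.91 in Rag2-/- and 4.71 ± 0.70 in the NSG strain). Xcr1 and Clec9a, which define one class of dendritic cells, stayed at or under 0.198 and 0.595 CPM. At no more than 4 and 12 counts per mouse, these 2 genes do not show whether dendritic cells were present. Of 3 NK cell genes 1 was tested, Klrb1c, which rose in WT, WT-Tacr delayed and Rag2-/- mice and was at or under 0.942 CPM in every mouse. The part of each cell type in the class II values was not tested.

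Markers of other tissue differed as well. Of 5 meningeal fibroblast genes 4 were called higher after stroke in WT, WT-Tacr delayed, Rag2-/- and NSG mice and 1 in WT-Tacr acute mice, their sum going from 81.2 to 91.9 CPM in non-stroked to 267 to 562 CPM in stroked WT mice. Choroid plexus genes varied from mouse to mouse within groups, with sums of 9.03 to 808 CPM in non-stroked and 11.2 to 252 CPM in stroked WT mice and 10.7 to 849 CPM in WT-Tacr delayed mice, and 0 of 6 were called in any stroke comparison. Of 6 cortical neuron genes, 1 was lower in stroked WT and 4 in WT-Tacr delayed mice. Their part in the class II values was not tested.

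Over the 29 mice, Pearson's r of the log2 CPM with Cd74 was 0.987 for H2-Aa, 0.982 for H2-Eb1, 0.980 for H2-Ab1, 0.928 for Cd86, 0.924 for H2-DMb1, 0.920 for Ciita, 0.883 for Cd80 and 0.579 for H2-DMa. The 5 genes outside the list most like Cd74 were Cxcl16 (0.981), Cybb (0.979), Hcls1 (0.978), Pld4 (0.977) and Laptm5 (0.977). With group means removed, r with Cd74 was 0.951 for H2-Ab1, 0.938 for H2-Eb1, 0.922 for H2-Aa and 0.911 for Cxcl16, but 0.773 for Ciita, 0.659 for Cd86 and 0.497 for Cd80. The points share the split between stroked and non-stroked tissue and, within a mouse, 1 library, and these values are descriptions. Cxcl16, a chemokine of macrophages, rose by 3.23 in WT and 3.25 in NSG mice on the log2 scale, and Cybb, the phagocyte NADPH oxidase subunit, by 4.46 and 3.99. Hcls1, Pld4 and Laptm5, genes of blood-derived and microglial cells, rose by 1.34 to 1.44 in WT mice.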

How the data were processed

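Brain tissue of 29 mice in 8 groups was profiled by RNA-seq of polyA-selected, stranded libraries. The authors deposited raw read counts per Ensembl gene, made at a core facility, and the aligner, counter, genome build and use of strand are not given in the sources used here. Groups and cohorts follow the labels. Of 25746 genes, 25712 matched GENCODE M21 (GRCm38), which gave symbols, positions and exon lengths. Counts were tested with edgeR 4.0.16 in R 4.3.3 (quasi-likelihood, TMM, filterByExpr) in 1 fit of 8 groups, with Benjamini-Hochberg adjustment over 17031 genes. CPM values use TMM library sizes, and log2 CPM a prior count of 2. Total counts of 17789044 to 43403413 set the precision, and the floor for a count of 0 is 3 counts. In simulated WT data the calls recovered 82 of 100 genes changed by 1.5 on the log2 scale. Those genes were drawn at random from all genes tested, so this is not a rate for the 9 members. DESeq2 1.42.0, other normalization, filters, covariates, sample choices and left-out mice were tried as alternatives. All 9 genes are named, with called pathway genes, at most 4 others per list, and the 5 genes most like Cd74. The genes and lists were chosen with earlier results of these data known. Some genes of these lists are counted but not reported here by name.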

Additional observations from a re-analysis of the deposited data

Results flagged for a closer look

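Of 36 sets of 4 or 5 mice (a gene in a group), 4 held a mouse far from the others by Dixon's test, which flags about 1 in 20 groups by chance. In non-stroked NSG mice, 3NSG had 2.18 CPM of H2-Aa, where the next mouse had 1.08 CPM, and 1.81 CPM of H2-Eb1, where the next had 0.787 CPM. In non-stroked WT mice, 3Wt had 0.190 CPM of Ciita, from 7 counts, where the next had 0.0854 CPM. In WT-Tacr delayed mice, 5_5 had 6.70 CPM of Cd80, where the next had 3.02 CPM.

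The stroke responses of WT-Tacr delayed and WT-Tacr acute mice, which share the non-stroked WT controls, differed in 8 of the 9 genes by the test of the difference itself (edgeR). In this comparison 5.75% of all genes tested were called in either direction. On the log2 scale the difference was 2.17 for H2-Aa, 1.89 for H2-Ab1, 2.05 for H2-Eb1, 1.97 for Cd74, 1.84 for Ciita, 1.64 for H2-DMb1, 1.40 for Cd80 and 1.19 for Cd86. All 8 calls were lost without acute mouse 5m_1 or without acute mouse 1_5, in fits that called 0% of all genes tested. A fit of the 2 groups alone also called 0 members and 0 genes. Without delayed mouse 5_5, 2 of the 9 remained called (2.54% of all genes).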

How the results depend on the processing

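The number of the 9 genes called in each comparison stayed within 1.5 times its value under RLE normalization, without a filter on low counts and without NSG mice, and with DESeq2 where it gave adjusted p-values. Without a minimum fold change 1 gene, H2-DMa, was called between non-stroked NSG and WT and between NSG and Rag2-/- mice. The stroke comparison in WT-Tacr acute mice called 0 of the 9 with the cohort as a covariate, 0 with Imm2 mice only, where 1 acute mouse is left and is assumed to vary like the other groups, and 0 of 8 with only the groups compared. WT-Tacr delayed against acute mice called 4 with the cohort as a covariate and 0 with only the groups compared, the latter at nearly the same fold changes. With single mice left out, the calls ranged from 0 to 7 for stroke in WT-Tacr acute mice (0 without 2_1, where 0.133% of all genes were called). For WT-Tacr acute against stroked WT mice the calls ranged from 0 to 7 (7 without 2_1, 3.99% of all genes). For WT-Tacr delayed against acute mice the calls ranged from 0 to 8, with 2 without 5_5 (2.54% of all genes) and 0 without 5m_1 or 1_5 (0%). They ranged from 6 to 8 for stroke in NSG, 6 to 7 in Rag2-/- and 8 to 8 in WT and WT-Tacr delayed mice, and were 0 elsewhere. Without 2_1 the log2 fold change of Ciita in WT-Tacr acute mice turned to -0.56 (adjusted p = 0.826), the lowest of a range up to 2.26. The cause of these changes was not tested. A replicate block on the non-stroked mice gave 0 calls in each of the 3 strain comparisons, as did the same mice without the block. The numbers do not pair the mice, since same-numbered mice correlated at -0.258 to 0.108 between NSG and WT, -0.0960 to 0.0322 between NSG and Rag2-/-, and 0.0775 to 0.0826 between Rag2-/- and WT mice. An Imm2-only fit could not be made for WT-Tacr delayed mice, which are all in the TF cohort. Depth limits Ciita most, at 0 to 7 counts in non-stroked mice and the 2 low WT-Tacr acute mice.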
